A study of Mus musculus with 2 samples.

Results

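The TGF-beta pathway genes described here are 10 protein-coding genes, taken by symbol from a deposited table of 54532 mouse genes: the ligand genes Tgfb1, Tgfb2, Tgfb3 and Inhba, the latency gene Ltbp1, the receptor genes Tgfbr1 and Tgfbr2, the signal transducer Smad3, the inhibitory Smad7 and the target gene Tgfbi. All 10 were found, each in 1 row. They were measured by RNA sequencing in CT26, a mouse colon carcinoma cell line, after 4 days in culture. The control cells, labelled wild type, carried lentivirus with the empty expression vector. The other cells carried lentivirus for mouse Oct4 (the gene Pou5f1) and human SOX2 and are described as dedifferentiated in their label; they are called Oct4/SOX2 cells here. Both cultures therefore share the cell line, a lentiviral vector and the medium. The promoter in the vector, and whether the cells were a pool or a clone, are not stated in the labels, and the batch is labelled as not available.

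There was 1 library per group, so no difference below has a replicate check and no test across samples was possible. Reads assigned to genes numbered 32262408 for the control cells and 31521115 for the Oct4/SOX2 cells. Pou5f1 had 0 reads in control cells and 12406 in the Oct4/SOX2 library, at least 4143-fold higher by a floor of 3 control reads. The mouse gene Sox2 already had 929 reads (14.1 FPKM) in the control and had 1525 reads (23.3 FPKM) in the Oct4/SOX2 library, 1.64-fold higher (95% counting interval 1.51 to 1.79). The introduced factor is human SOX2, the table lists mouse genes, and how reads of the human sequence were assigned is not given, so the second factor of the label was not shown by this row. Of 12 colon epithelial markers 3 reached 1 FPKM (sequenced fragments per kilobase of gene, set to a common depth) in either library: Krt18, Krt20 and Lgals4. Cdh1 and Cdx1 had 0 reads in both libraries and Epcam 1 and 2 reads, so most markers of the labelled colon origin were absent or near 0. Of 12 leukocyte markers 2 reached 1 FPKM, Cd14 and Cd68, while 5 had 0 reads in both libraries and the defining gene Ptprc had 2 reads in each. The leukocyte list summed to 27.2 FPKM in control cells and 21.3 FPKM in Oct4/SOX2 cells. None of 8 endothelial markers reached 1 FPKM, with sums of 0.455 and 0.634 FPKM. Of 8 platelet and erythroid markers Ppbp and Itga2b did, and that list summed to 2.63 and 4.26 FPKM. Their part in the values below was not tested. In bulk RNA, fewer cells expressing a gene and less of its RNA per cell cannot be told apart.

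TGF-beta ligands are secreted in a latent form, in which the propeptide stays bound to the mature ligand and is linked to a latent TGF-beta binding protein in the matrix. Once released, the ligand binds the type II receptor, which activates the type I receptor, and this phosphorylates SMAD2 and SMAD3 to enter the nucleus with SMAD4. Activins, made from inhibin beta subunits, use their own receptors but the same SMADs, and SMAD7 is induced by the pathway and limits it. In the normal intestinal epithelium TGF-beta restrains growth, and in colon tumours the pathway is often altered.

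The ligand genes are related in sequence, which bears on whether their reads can be separated. The last 150 coding bases before the stop codon of Tgfb1, Tgfb2 and Tgfb3 are shown because they encode the end of the mature ligand, where the family is known to be conserved. Sequences are from the principal GENCODE M21 transcripts, read 5′ to 3′, and capitals mark the 93 bases that are identical in all 3 genes without gaps.

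Tgfb1: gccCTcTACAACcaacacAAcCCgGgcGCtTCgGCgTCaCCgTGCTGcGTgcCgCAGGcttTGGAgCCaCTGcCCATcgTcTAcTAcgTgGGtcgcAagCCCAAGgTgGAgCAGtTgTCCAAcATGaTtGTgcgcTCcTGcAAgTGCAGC

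Tgfb2: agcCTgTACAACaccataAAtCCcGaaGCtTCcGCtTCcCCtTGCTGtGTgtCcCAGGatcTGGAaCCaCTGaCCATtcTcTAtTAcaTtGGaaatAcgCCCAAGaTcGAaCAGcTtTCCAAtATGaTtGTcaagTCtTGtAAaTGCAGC

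Tgfb3: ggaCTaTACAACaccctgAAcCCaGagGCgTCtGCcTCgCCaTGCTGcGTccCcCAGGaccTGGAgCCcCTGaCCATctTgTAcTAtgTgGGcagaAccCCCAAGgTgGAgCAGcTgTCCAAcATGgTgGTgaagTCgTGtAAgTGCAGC

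Over the mature part, the last 336 coding bases or 112 codons after a basic cleavage motif in each translated sequence, Tgfb1 and Tgfb3 were identical at 73.5% of positions, Tgfb2 and Tgfb3 at 70.8%, and Tgfb1 and Tgfb2 at 68.8%. In the printed stretch the matches were interrupted by single differing bases and by short runs of them, as the changes of letter case show. The longest exact run shared by the whole coding sequences of Tgfb1 and Tgfb3 was 15 bases, CCCAAGGTGGAGCAG, at coding bases 1120 to 1134 of Tgfb1 and 1186 to 1200 of Tgfb3. Tgfb1 and Tgfb2 shared at most 10 bases in a row, and Tgfb1 and Inhba 12. The labels do not state how reads with several matches were counted.

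The balance of the ligand genes differed between the libraries: Tgfb1 was higher and Tgfb3 lower in Oct4/SOX2 cells. The FPKM sum of the 3 TGF-beta ligand genes, which depends on the deposited gene lengths, was nearly the same. Tgfb1, whose product is the most widely expressed TGF-beta isoform, stood at 5.03 FPKM in the control library (809 reads) and 8.06 FPKM in the Oct4/SOX2 library (1294 reads). The Oct4/SOX2 library was thus the higher one, 1.60-fold in plain FPKM (95% counting interval 1.47 to 1.75). Tgfb3, known from palate fusion and matrix-producing cells, stood at 7.58 FPKM in the control (818 reads) and 4.61 FPKM in Oct4/SOX2 cells (497 reads). Here the control was the higher library, and the Oct4/SOX2 library was 1.64-fold lower (1.47 to 1.84). Tgfb2, the isoform that needs the co-receptor betaglycan for strong binding, was near the limit of counting, at 0.103 FPKM from 19 reads and 0.152 FPKM from 28 reads. Its ratio of 1.48 had an interval of 0.796 to 2.80, so a difference was not detectable at this depth.

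The 3 ligand genes summed to 12.7 FPKM in control cells and 12.8 FPKM in Oct4/SOX2 cells. Tgfb1 held 39.6% of that sum in control cells and 62.8% in Oct4/SOX2 cells, and Tgfb3 held 59.6% and 36.0%. Tgfb2 held 0.809% and 1.18%. By the deposited gene lengths, 5042 bases for Tgfb1 and 3383 for Tgfb3, the leading isoform was Tgfb3 in the control library and Tgfb1 in the other. The Tgfb1 length is above that of its principal transcript, which has 1170 coding and 1005 untranslated bases. Control reads of the 2 genes were close, at 809 and 818. The order in the control, the shares and the sum therefore depend on the lengths used. The ratio of Tgfb1 to Tgfb3 FPKM was 0.664 in control cells and 1.75 in Oct4/SOX2 cells. That is a 2.63-fold shift (95% conditional interval 2.28 to 3.04), a value in which gene length and library scaling cancel. This ratio was chosen after the values had been seen, and its interval, like all others here, covers counting error only.

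**Figure D1:**
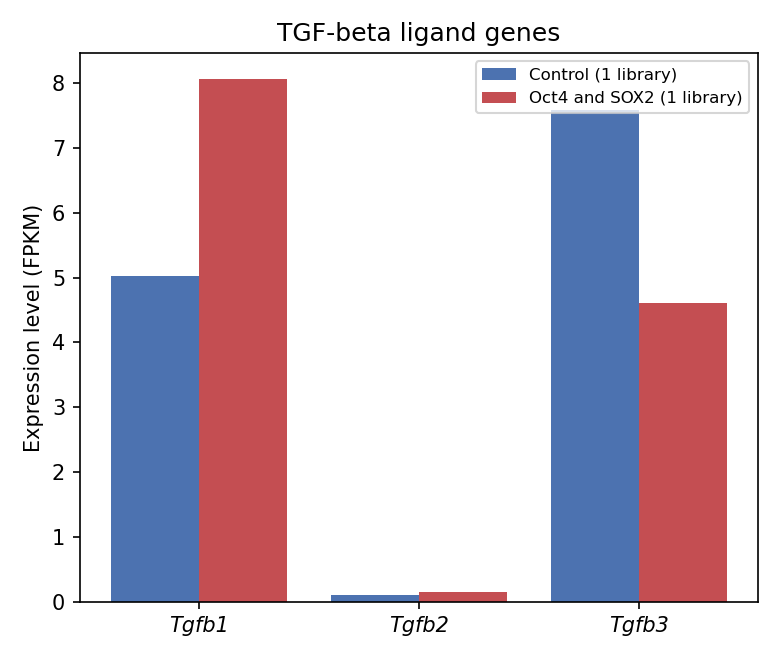
Expression of the 3 TGF-beta ligand genes in FPKM (vertical axis) in the control library (blue) and the Oct4/SOX2 library (red), 1 library per bar. Tgfb1 stands at 5.03 and 8.06 FPKM and Tgfb3 at 7.58 and 4.61 FPKM, and Tgfb2 is below 1 FPKM in both.

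The genes do not lie together: Tgfb1 (ENSMUSG00000002603) is on chromosome 7 from 25687002 to 25705077, Tgfb2 (ENSMUSG00000039239) on chromosome 1 from 186622792 to 186705989, and Tgfb3 (ENSMUSG00000021253) on chromosome 12 from 86056745 to 86079041, all in GRCm38. Each principal transcript has 7 exons, with 1170, 1242 and 1236 coding bases in Tgfb1, Tgfb2 and Tgfb3. Untranslated bases make up 1005, 3874 and 2147 bases of these transcripts. The Tgfb3 gene overlaps the end of Ttll5, a tubulin-modifying enzyme gene on the opposite strand, from 85824659 to 86061893. Ttll5 stood at 1.13 FPKM in control cells and 1.35 FPKM in Oct4/SOX2 cells, the opposite direction to Tgfb3. Whether strand was used in counting is not given, so reads in the overlap cannot be told apart.

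Inhba, which encodes the inhibin beta A subunit of activin A, was the most expressed ligand gene. It stood at 24.4 FPKM in the control (4968 reads) and 31.7 FPKM in Oct4/SOX2 cells (6454 reads). The Oct4/SOX2 library was higher by 1.30-fold (1.25 to 1.35). The control level exceeded those of 80.6% of measured genes, and the Oct4 and SOX2 level those of 86.0%. Inhba (ENSMUSG00000041324) is found on chromosome 13 between 16011851 and 16031621. The principal Inhba transcript has 5 exons with 1272 coding bases and 5118 untranslated ones. It overlaps the antisense gene Gm48444, with 9 and 14 reads, and the pseudogene B230303A05Rik, with 12 and 27 reads, both far below the Inhba reads.

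Ltbp1 encodes latent TGF-beta binding protein 1, which ties the latent ligand to the matrix, and had the highest level of the 10 genes. It stood at 55.9 FPKM in the control (18693 reads) and 59.9 FPKM in Oct4/SOX2 cells (20015 reads), a ratio of 1.07 (1.05 to 1.09). The libraries thus differed little in Ltbp1, which lay above Inhba and above the sum of Tgfb1, Tgfb2 and Tgfb3 in both. Ltbp1 (ENSMUSG00000001870) spans chromosome 17 from 75005568 to 75392512, and its principal transcript has 30 exons with 4023 coding bases.

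The receptor genes differed less than the ligand genes. Tgfbr1, the type I receptor kinase, stood at 5.45 FPKM in the control (1136 reads) and 5.86 FPKM in Oct4/SOX2 cells (1220 reads). Its ratio was 1.08, with an interval of 0.992 to 1.17 that includes 1 at the scaling of the deposited values. Tgfbr2, the type II receptor kinase that binds the ligand, stood at 10.7 FPKM (2801 reads) and 9.02 FPKM (2354 reads), 1.19-fold lower in Oct4/SOX2 cells (1.12 to 1.26). Tgfbr2 was the more expressed receptor gene in both libraries, and the ratio of Tgfbr1 to Tgfbr2 was 0.508 in control cells and 0.649 in Oct4/SOX2 cells. Tgfbr1 (ENSMUSG00000007613) lies on chromosome 4 from 47353222 to 47414931 with 9 exons. Tgfbr2 (ENSMUSG00000032440) lies on chromosome 9 from 116084293 to 116175360 with 7 exons.

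Smad3, a receptor-regulated SMAD that carries the signal to the nucleus, was at the same level in both libraries. It stood at 16.4 FPKM in the control (2900 reads) and 16.5 FPKM in Oct4/SOX2 cells (2908 reads), a ratio of 1.005 (0.954 to 1.06). Smad7, the inhibitory SMAD, stood at 13.7 FPKM (1975 reads) and 16.8 FPKM (2424 reads), 1.23-fold higher in Oct4/SOX2 cells (1.16 to 1.31). Smad3 was thus above Smad7 in the control, and in Oct4/SOX2 cells the counting intervals of their levels overlapped, at 15.9 to 17.1 FPKM for Smad3 and 16.2 to 17.5 FPKM for Smad7. Smad3 (ENSMUSG00000032402) lies on chromosome 9 from 63646767 to 63757994 with 9 exons, and Smad7 (ENSMUSG00000025880) on chromosome 18 from 75367529 to 75395935 with 4.

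Tgfbi, the gene for a secreted matrix protein that is induced by TGF-beta in many cells, had the ratio furthest from 1 of the 10, at a low level. It stood at 0.864 FPKM in the control (104 reads) and 0.0999 FPKM in Oct4/SOX2 cells (12 reads). The control was the higher library, and the Oct4/SOX2 library was 8.65-fold lower in plain FPKM (4.75 to 17.3). Because neither value reaches 1 FPKM, Tgfbi falls outside the measured set used for counts. Tgfbi (ENSMUSG00000035493) lies on chromosome 13 from 56609523 to 56639562, and its principal transcript has 17 exons with 2049 coding bases.

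**Figure D2:**
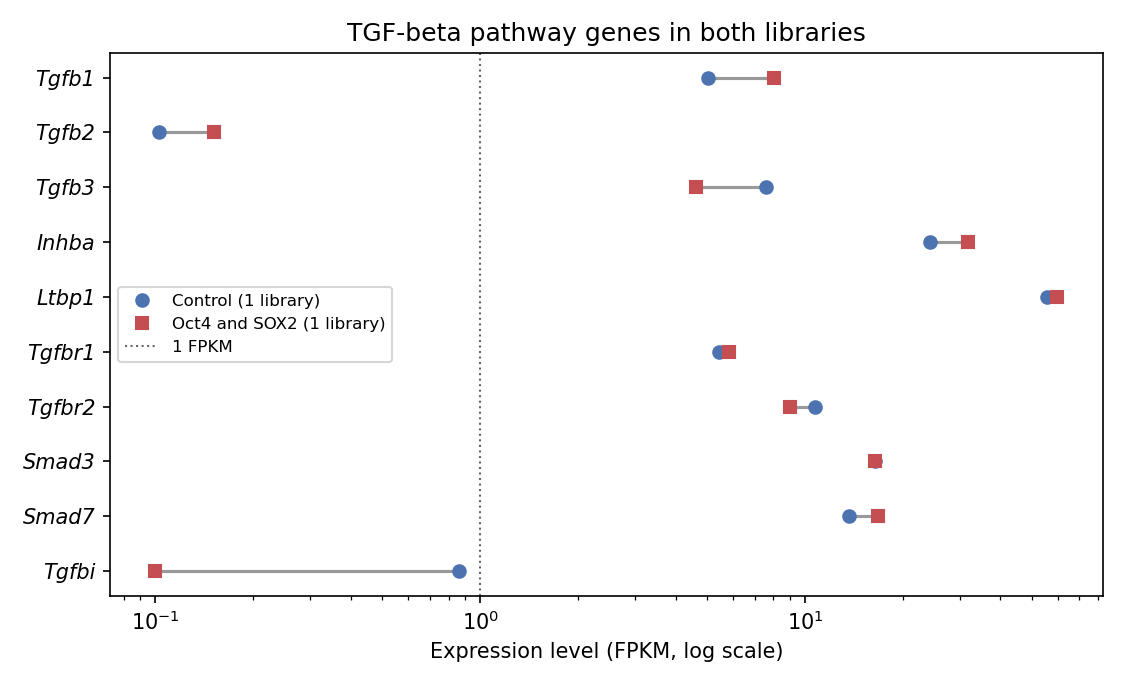
Level of each of the 10 genes in FPKM on a log axis, with the control library as blue circles and the Oct4/SOX2 library as red squares joined by a line. Ltbp1 and Inhba are highest in both libraries, and Tgfb2 and Tgfbi lie left of the dotted line at 1 FPKM.

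Ordered by level, the control library ran from Ltbp1 through Inhba, Smad3, Smad7, Tgfbr2, Tgfb3, Tgfbr1 and Tgfb1 to Tgfbi and Tgfb2. The neighbours Tgfbr1 and Tgfb1 overlapped in their control intervals, at 5.13 to 5.77 FPKM and 4.69 to 5.39 FPKM. In the Oct4/SOX2 library the order was Ltbp1, Inhba, Smad7, Smad3, Tgfbr2, Tgfb1, Tgfbr1, Tgfb3, Tgfb2 and Tgfbi. Tgfb1 and Tgfb3 had thus exchanged places on either side of Tgfbr1, in an order that depends on the deposited gene lengths. In that library the intervals of Tgfb2 and Tgfbi, 0.101 to 0.219 FPKM and 0.0516 to 0.174 FPKM, also overlapped.

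Of the 10 genes 8 reached 1 FPKM in at least 1 library. On the scale of log2(FPKM + 1), which understates the differences of low genes, 0 of the 8 were at least 2-fold higher and 0 at least 2-fold lower in Oct4/SOX2 cells. Over all 12401 measured genes 2.42% were at least 2-fold higher and 1.85% at least 2-fold lower. At 1.5-fold, 1 of the 8 was higher, Tgfb1, and 1 was lower, Tgfb3, beside 6.58% and 6.34% of all measured genes. Tgfb1 had a log2 ratio of 0.59 and only just passed the limit of 0.58, and Tgfb3 had -0.61. The median log2 ratio of the 8 was 0.09, beside -0.01 for all measured genes. Above 0 were 6 of the 8, beside 5993 of the 12401 measured genes.

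A count in plain FPKM, chosen after the values had been seen, took genes with at least 50 reads in 1 library, which left out Tgfb2 alone. Of these 9 genes 1 was at least 2-fold lower, Tgfbi, beside 3.36% of 12336 genes, and 0 were at least 2-fold higher, beside 3.40%. At 1.5-fold 2 were lower, Tgfb3 and Tgfbi, beside 8.91%, and 1 was higher, Tgfb1, beside 8.69%. The counting interval of the ratio left out 1 for 7 of the 9, all but Tgfbr1 and Smad3. The same held for 69.1% of the 12336 genes, so that at this depth an interval without 1 is common and is not particular to these genes. The intervals take the scaling of the deposited values as given. With plain read totals the log2 ratio of Tgfbr1 on the FPKM + 1 scale was 0.12 in place of 0.09. Whether its interval would then still include 1 was not tested.

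**Figure D3:**
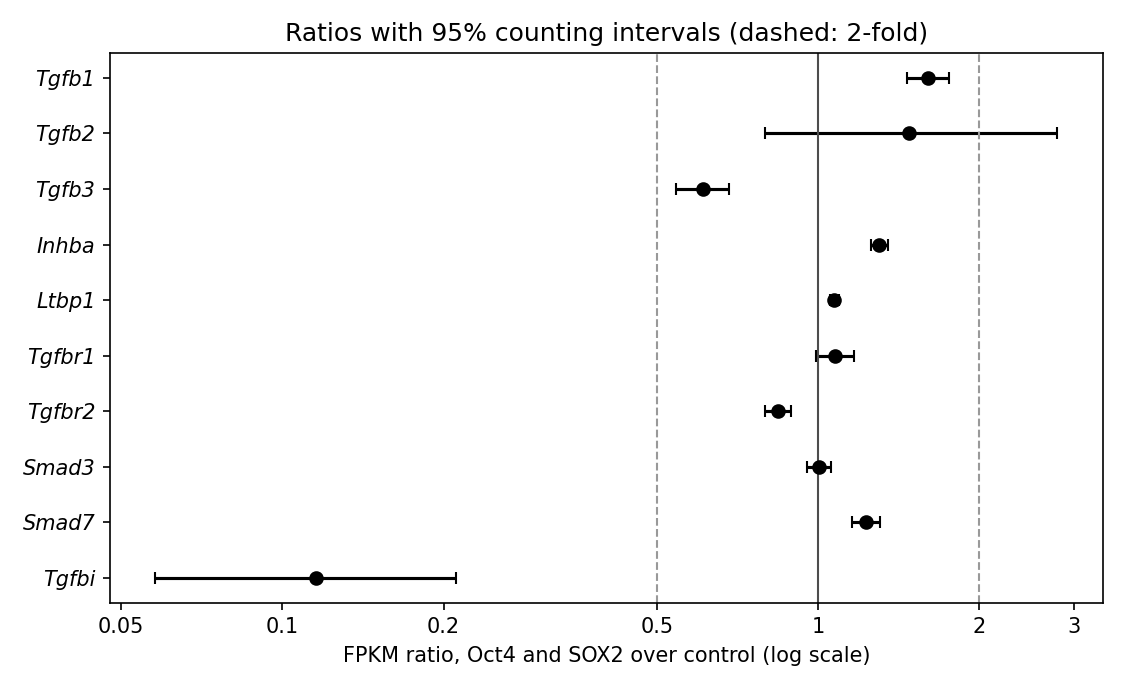
Ratio of plain FPKM, Oct4/SOX2 library over control, on a log axis for each of the 10 genes, with bars for the 95% counting interval and dashed lines at 2-fold. Tgfbi at 0.116 lies beyond the lower dashed line, and Tgfb1 at 1.60 and Tgfb3 at 0.609 lie inside on opposite sides of 1.

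Further genes of the pathway were described from lists that hold none of the 10. Counts and medians of these lists are on the FPKM + 1 scale, on which 2.42% of all measured genes were at least 2-fold higher and 1.85% lower, 6.58% and 6.34% passed 1.5-fold, and the median log2 ratio was -0.01. Cd109, a co-receptor that dampens TGF-beta signalling, alone among 9 measured other receptor genes passed 2-fold. It stood at 10.7 FPKM in the control (2366 reads) and 28.6 FPKM in Oct4/SOX2 cells (6295 reads), 2.67-fold higher (2.54 to 2.80). The median log2 ratio of the 9 was 0.17, beside -0.01 for all measured genes. Tgfbr3, encoding betaglycan, stood at 9.56 and 11.8 FPKM, and the activin receptor gene Acvr2a at 5.85 and 7.91 FPKM. These and the other genes named below with a ratio under 2-fold on the FPKM + 1 scale were chosen after their values had been seen, apart from Inha, Lefty1, Smad4, Smad5, Strap and Fkbp1a.

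Among 12 other ligand genes 3 reached 1 FPKM, Inha, Gdf11 and Lefty1, and none was 2-fold different. Inha, whose product pairs with the beta A subunit to form inhibin A, stood at 4.91 FPKM in control cells and 7.96 FPKM in Oct4/SOX2 cells, 1.62-fold higher (1.37 to 1.92). Lefty1, an antagonist of Nodal, stood at 0.945 and 1.25 FPKM. The activin-binding proteins pointed the same way as Inha and Inhba. Fst, encoding follistatin, stood at 2.37 FPKM (347 reads) and 4.84 FPKM (707 reads), 2.04-fold higher in plain FPKM (1.79 to 2.33). Fstl3, a follistatin-like antagonist, stood at 7.03 and 10.2 FPKM, 1.45-fold higher (1.30 to 1.62). The ratio of Inhba to Fst was 10.3 in control cells and 6.56 in Oct4/SOX2 cells.

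Genes for ligand storage and activation differed in both directions. Of 23, 14 were measured, 1 was at least 2-fold higher and 1 at least 2-fold lower, beside 2.42% and 1.85% of all measured genes, with a median log2 ratio of 0.06 beside -0.01. Itgb8, the beta subunit of an integrin that activates latent TGF-beta, stood at 0.215 FPKM in the control (76 reads) and 2.05 FPKM in Oct4/SOX2 cells (722 reads), 9.52-fold higher (7.51 to 12.2). Igf2r, the mannose 6-phosphate receptor that can bind latent TGF-beta, stood at 9.29 FPKM (2759 reads) and 3.97 FPKM (1178 reads), 2.34-fold lower (2.18 to 2.51). Emilin1, a matrix glycoprotein gene whose product restrains TGF-beta maturation, stood at 5.06 and 2.28 FPKM, 2.22-fold lower in plain FPKM (1.96 to 2.52).

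Of 6 other SMAD genes 5 were measured and none passed 2-fold on the FPKM + 1 scale, with a median log2 ratio of 0.18. Smad6, an inhibitory SMAD like Smad7, was low, at 1.05 FPKM in the control (107 reads) and 0.450 FPKM in Oct4/SOX2 cells (46 reads), and was 2.32-fold lower in plain FPKM (1.63 to 3.36). Its direction was thus opposite to that of Smad7. Smad4, the shared partner SMAD, stood at 29.8 and 27.8 FPKM, Smad5, of the BMP branch, at 15.1 and 18.1 FPKM, and Smad2, the partner of Smad3 in this pathway, at 14.6 and 16.7 FPKM. Of 32 pathway regulators with a usable row 30 were measured and none passed 2-fold on the FPKM + 1 scale, with a median log2 ratio of 0.03. Fst, described above, belongs to this list and passed 2-fold in plain FPKM alone. The most expressed were Strap, encoding a receptor-associated protein, at 120 and 111 FPKM, and Fkbp1a, whose product FKBP12 holds the type I receptor inactive, at 84.2 and 104 FPKM.

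Of 35 genes known as TGF-beta targets in various cells, 24 were measured, 2 were at least 2-fold higher and none 2-fold lower, beside 2.42% and 1.85% of all measured genes. Their median log2 ratio was 0.26, beside -0.01 for all measured genes. Of the 24, 16 were above 0 and 8 below, beside 5993 and 6408 of the 12401 measured genes. At 1.5-fold 6 were higher and 2 lower, beside 6.58% and 6.34%. Angptl4, a secreted inhibitor of lipoprotein lipase, stood at 1.45 FPKM in the control (152 reads) and 7.86 FPKM in Oct4/SOX2 cells (823 reads), 5.42-fold higher (4.56 to 6.49). Timp1, a metalloproteinase inhibitor gene, stood at 100.4 FPKM (2845 reads) and 230.0 FPKM (6507 reads), 2.29-fold higher (2.19 to 2.40). Ctgf, the connective tissue growth factor gene, stood at 8.32 and 17.5 FPKM, 2.11-fold higher in plain FPKM (1.93 to 2.30). The measured targets thus held more genes that were higher than genes that were lower. Of the type I collagen genes, Col1a1 was lower, at 62.1 and 40.0 FPKM, and Col1a2 was higher, at 185 and 306 FPKM. Tgfbi, a target outside this list, went from 104 reads to 12. Many of the listed targets respond to other signals as well.

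**Figure D4:**
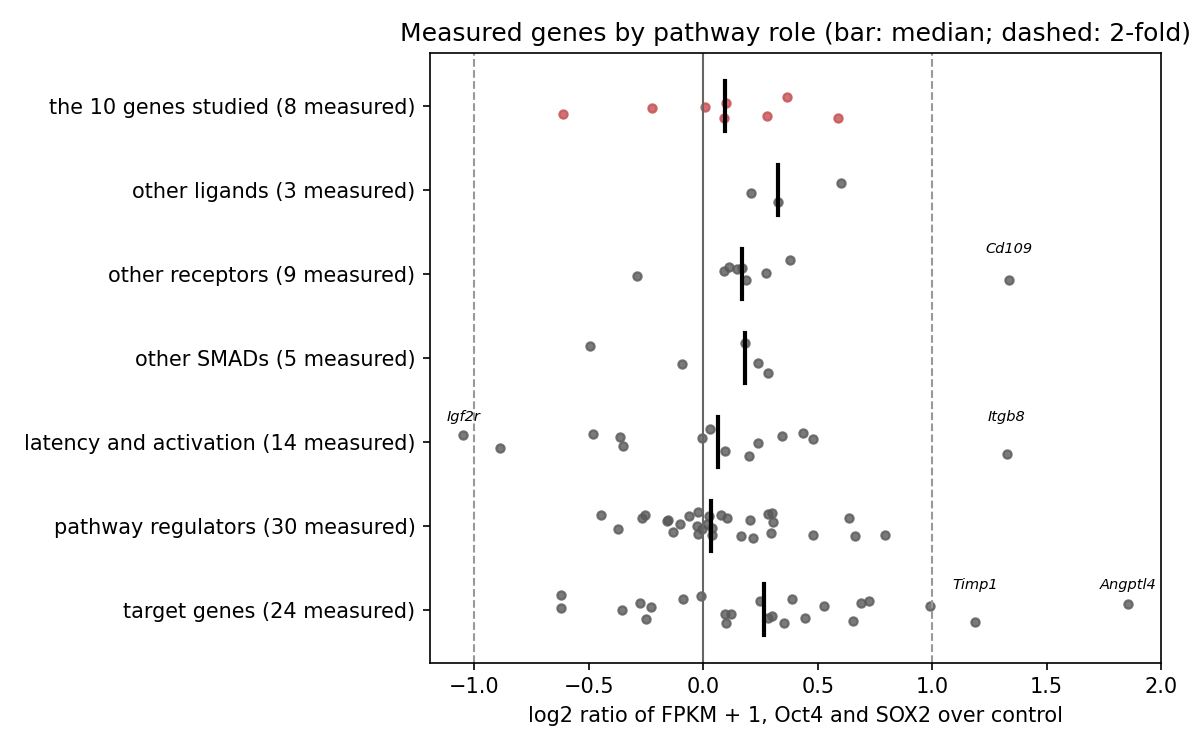
Log2 ratio of FPKM + 1, Oct4/SOX2 library over control, for the measured genes of each list (points), with the list median (bar) and 2-fold limits (dashed). All 8 measured genes of the 10 lie inside the limits, and the 5 genes beyond them are Cd109, Itgb8, Igf2r, Timp1 and Angptl4.

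Promoter sequence was compared because Tgfb1 and Tgfbi differed in opposite directions. The windows are the 250 bases before the RefSeq start in GRCm38.p6, and were searched for 8 of the 10 genes. Windows of Tgfb3 and Smad7 were not searched and are not shown. For Tgfb1 the window is chr7:25686752-25687001 and for Tgfbi chr13:56609336-56609585, both on the plus strand, written 5′ to 3′ with GC boxes in capitals. The Tgfb1 window ends just before the deposited gene start of 25687002. The Tgfbi window runs past the deposited gene start of 56609523, so its last bases lie inside the annotated gene.

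Tgfb1: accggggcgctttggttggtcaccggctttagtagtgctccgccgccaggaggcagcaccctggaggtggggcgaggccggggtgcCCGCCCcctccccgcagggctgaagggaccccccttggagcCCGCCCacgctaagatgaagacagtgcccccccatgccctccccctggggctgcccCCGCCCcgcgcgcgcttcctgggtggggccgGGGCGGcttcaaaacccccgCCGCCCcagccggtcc

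Tgfbi: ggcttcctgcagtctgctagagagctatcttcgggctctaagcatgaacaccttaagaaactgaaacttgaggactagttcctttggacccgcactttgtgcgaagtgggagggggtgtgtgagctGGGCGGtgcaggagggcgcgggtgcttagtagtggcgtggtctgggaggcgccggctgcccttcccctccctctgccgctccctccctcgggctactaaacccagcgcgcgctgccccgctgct

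The Tgfb1 window had 75.2% G and C and the Tgfbi window 62.4%, beside a median of 52.4% over 32851 promoters. The GC box GGGCGG, a site known for SP family factors and added to the search after the other motifs, matched at 5 places in the Tgfb1 window and 1 in the Tgfbi window, on either strand. It was found in 32.7% of all promoters. Windows of genes whose ratio was near 1 varied. The first Tgfbr1 entry had 74.8% G and C and the Smad3 window 69.2%, each with 2 GC boxes, at ratios of 1.08 and 1.005. The windows of the other 4 genes, and a second Tgfbr1 entry, held no GC box and 43.2% to 58.4% G and C. Among these were both Ltbp1 entries, at 56.8% and 50.8%, for a gene with a ratio of 1.07. None of the other motifs searched on both strands was in the Tgfb1 or the Tgfbi window. They were the octamer ATGCAAAT (in 1.60% of all promoters), the SOX motif ACAATG (10.7%) and the SMAD palindrome GTCTAGAC (0.167%). The others were the CAGA box CAGACA (17.1%), the AP-1 motif TGANTCA (6.75%) and the E-box CANNTG (66.2%). No 2 matches in these windows overlapped. The windows are short, and a motif outside them was not looked for.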

How the data were processed

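The authors deposited 1 table of FPKM values for 54532 genes in 2 libraries, with gene length and position. Per the submitters' processing notes, the tools were CASAVA, HISAT2 and featureCounts 1.5.0-p3, and the mouse build was GRCm38. For the FPKM formula, annotation release, strand setting and multiply matching reads, the method was not given in the sources used here. Per the labels' protocols, TRIzol RNA went into NEBNext Ultra RNA libraries.

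Read numbers were recovered from the FPKM values: multiplied by gene length, 100% of them were whole multiples of the value of 1 read, within 0.001 of a read. They sum to 32262408 (control) and 31521115 (Oct4/SOX2 cells). Differences are plain FPKM ratios with exact 95% conditional binomial intervals (Clopper-Pearson), and levels have exact Poisson intervals. These and the floor of 3 reads reflect counting error alone. PCR duplicates cannot be told apart in the recovered reads, and any among them would make the intervals too narrow. Counts use log2(FPKM + 1) in the 12401 genes that reached 1 FPKM in either library. With 1 library per group there was no test.

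The 10 genes, the lists and the measures were chosen with earlier results of these data known. The text names all 10, Pou5f1, Sox2, the nearest measured neighbour on each side of each (as a range, with examples chosen after their values were seen) and, from each list, up to 3 genes per direction past 2-fold or the 2 most expressed. Hgs had 2 overlapping rows and was left out, and 1 planned target gene is not reported here. The symbols Ctgf and Cyr61 were matched for Ccn2 and Ccn1. Comparison of protein sequences, which had been planned, was not run, and coding sequences were compared instead. GENCODE M21 gave exon structure and coding sequence, and all 10 genes had the same coordinates there. Steps were tested on simulated data. Alternatives were other pseudocounts, filters and scalings. Software was scipy 1.17.1, numpy 2.4.6, matplotlib 3.10.9 and pandas 2.3.3 under Python 3.11.15.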

Additional observations from a re-analysis of the deposited data

How the results depend on the processing

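No paired analysis was possible because each group holds 1 library. The counts at 2-fold were 0 higher and 0 lower under all 7 alternatives. With a pseudocount of 5 FPKM the counts at 1.5-fold went from 1 higher and 1 lower to 0 and 0, beside 2.24% and 2.27% of all measured genes. The log2 ratios were then 0.38 for Tgfb1 and -0.39 for Tgfb3, since a larger pseudocount shrinks low values. With no filter the lower count at 1.5-fold was 2, because Tgfbi entered with -0.76, beside 1.74% of all 54532 genes. The median log2 ratio of those of the 10 genes that passed each filter lay between 0.07 and 0.12. No gene changed direction. Of 58 values for single genes 54 moved by less than their counting interval and 4 by more, those of Tgfb1 and Tgfb3 above and Ltbp1 at 0.13 under the rescalings without the 50 highest genes and to plain read totals. Over all genes, 4.19% were 2-fold higher and 3.70% lower with a pseudocount of 0.1, and 0.605% and 0.452% with 5. Depth limits Tgfb2, with 19 and 28 reads, and Tgfbi in Oct4/SOX2 cells, with 12. Culture-to-culture spread is unknown for every value.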

Other observations

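Genes next to the 10 were described as well, taking the nearest gene with at least 1 FPKM on each side. Immediately before Smad7, and on the opposite strand, lies Gm20544, a noncoding transcript on chromosome 18 from 75365332 to 75367088 that starts 441 bases from the Smad7 start, head to head with it. It stood at 2.32 FPKM in the control (51 reads) and 8.55 FPKM in Oct4/SOX2 cells (188 reads), 3.69-fold higher (95% counting interval 2.70 to 5.14), while Smad7 itself was 1.23-fold higher. The other 19 of the 20 neighbours were within 2-fold on the FPKM + 1 scale, with log2 ratios from -0.66 to 0.58. On either side of Tgfb1, whose ratio was 1.60, B9d2, a ciliary gene 444 bases away, stood at 8.60 and 7.47 FPKM and Ccdc97 at 16.65 FPKM in both libraries. Beside Tgfb3, Ift43, an intraflagellar transport gene 3500 bases away, stood at 10.2 and 9.18 FPKM. On the other side Erg28, a sterol synthesis gene 232195 bases away, stood at 7.12 and 5.30 FPKM. Ttll5, which overlaps Tgfb3 and so was not taken as a neighbour, lies between Erg28 and Tgfb3, at 1.13 and 1.35 FPKM. The nearest measured gene to the right of Tgfbi is Smad5, 63448 bases away, at 15.1 and 18.1 FPKM. Alg2, a glycosylation enzyme gene next to Tgfbr1, stood at 21.7 and 13.4 FPKM, 1.62-fold lower (1.52 to 1.73), with Tgfbr1 at a ratio of 1.08.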
